A study of Mus musculus with 6 samples.

Results

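The mouse stefin A genes and the cystatins coded elsewhere were described in femoral bone marrow after hindlimb unloading. The 9 members were taken by gene symbol from the deposited gene table, which listed 54532 genes, and were selected on counts of this very contrast, unloaded against control marrow. They were the 6 stefin A copies Stfa1, Stfa2, Stfa2l1, Stfa3, BC100530 and Gm5483 of chromosome 16, and Cstb, Cst3 and Cst7. All 9 passed the filter on low counts, which left 15015 genes. Changes of the members between the groups are therefore a description, and where calls that a tool made across all genes take in members, nothing is read from them.

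RNA-seq was run on total RNA from freshly isolated marrow cells of WT mouse femurs. The unloaded group held 3 libraries from mice whose hind limbs were kept off the ground for 4 weeks (hindlimb unloading), a model of osteoporosis from disuse. The control group held 3 libraries from WT mice without unloading. Strain, age and sex are not given in the labels, which also name no cell sort, so each library may mix all marrow cell types. Whether each replicate was a separate animal is not stated in the labels, and p-values therefore cover only the spread between these samples.

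Cystatins are reversible inhibitors of papain-like cysteine proteases, the class that holds most cathepsins. Stefins, the family A cystatins, lack a signal peptide and act in the cytosol and nucleus, whereas secreted cystatins such as cystatin C carry a signal peptide and act outside the cell or in the endolysosomal system. The mouse carries several tandem copies of stefin A where the human genome has a single gene, and in marrow these copies are known mainly from neutrophils and their precursors.

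The libraries held 15850986, 16543465 and 16357961 counts in the unloaded group and 17775506, 16878388 and 16727836 counts in the control group. Ngp, S100a9, S100a8, Ltf and Lyz2, all typical of neutrophils or myeloid cells, had the most counts. The unloaded 1 library stood apart, with a score of 51.3 on the leading principal component of its log2 levels, against -13.7 to -7.37 for the other 5 libraries, and the cluster is therefore also given without it.

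The 6 copies spanned 298.6 kb of chromosome 16 on the mm10 build, chr16:36156811-36455392. In order along the chromosome, Stfa2l1 lies at chr16:36156811-36161953, Gm5483 at chr16:36184212-36188111 and Stfa1 at chr16:36276951-36285373, all on the plus strand. BC100530 at chr16:36359382-36367748, Stfa2 at chr16:36403992-36408457 and Stfa3 at chr16:36450537-36455392 follow on the minus strand. Of the others, Cstb, which codes for stefin B, lies at chr10:78425669-78427622 on the plus strand. Cst3, which codes for cystatin C, lies at chr2:148871722-148875692 on the minus strand, and Cst7, which codes for cystatin F, at chr2:150570415-150578944 on the plus strand. All 9 are annotated as protein-coding, and their positions matched those of GENCODE M21.

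Some of the copies are similar enough that a short read can match another copy as well. The coding ends show how the copies fall into groups. The last 60 coding bases, stop codon included, are printed from the GENCODE M21 transcripts, with capitals where a copy differs from Stfa1 at the same place counted back from the stop codon.
Stfa1: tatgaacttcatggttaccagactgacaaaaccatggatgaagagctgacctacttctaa
BC100530: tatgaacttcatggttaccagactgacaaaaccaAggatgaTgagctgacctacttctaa
Gm5483: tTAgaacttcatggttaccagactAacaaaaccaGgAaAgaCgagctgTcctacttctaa
Stfa2: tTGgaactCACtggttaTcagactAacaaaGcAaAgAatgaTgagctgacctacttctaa
Stfa2l1: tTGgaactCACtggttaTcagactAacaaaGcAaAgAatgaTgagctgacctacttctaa
Stfa3: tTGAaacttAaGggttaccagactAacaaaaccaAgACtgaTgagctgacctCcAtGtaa
In this stretch BC100530 differed from Stfa1 at 2 bases, Gm5483 at 8, Stfa2 and Stfa2l1 at the same 12, and Stfa3 at 13. Over the whole coding sequence Stfa1 and BC100530 were 98.0% identical and Stfa2 and Stfa2l1 96.5%, while the 15 stefin A pairs ranged from 73.4% to 98.0%. The copies shared 52.2% to 60.3% of aligned coding positions with Cstb and 36.7% to 39.9% with Cst3 or Cst7. The coding sequence was 294 bases long in Stfa1, BC100530 and Gm5483, and 312 bases long in Stfa2, Stfa2l1 and Stfa3.

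These likenesses bear on which copy a count can be assigned to. Of all 50-base stretches of its transcripts, 22.5% of those of Stfa1, 25.1% of BC100530, 24.6% of Stfa2l1, 15.9% of Stfa2 and 11.0% of Gm5483 also occurred in another gene. The stretches of Gm5483 were shared with 394 genes outside the members and with none of the members. For Stfa3, Cstb, Cst3 and Cst7 the share was 0%. At 100 bases the share was 5.07% for Stfa1, 9.49% for BC100530 and 2.47% for Gm5483 and 0% for the other members, and at 150 bases it was 0% for all 9. The sources used here do not give the read length, whether counting used strand, or how reads matching several genes were handled. Values of single copies are therefore uncertain, most of all between Stfa1 and BC100530 and between Stfa2 and Stfa2l1, and sums over copies are given beside them.

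Every one of the 6 stefin A copies had higher levels in all 3 unloaded libraries than in any control library, with fold changes of 1.67 to 3.26, whereas Cstb, Cst3 and Cst7 had nearly the same group means. Summed over the 6 copies, the cluster reached 105, 142 and 124 CPM in unloaded marrow, against 46.7, 78.4 and 69.4 CPM in control marrow. CPM are read counts scaled to library size, given here after TMM scaling, which adjusts for library composition. The mean was 124 ± 18.4 CPM in unloaded and 64.9 ± 16.3 CPM in control marrow (SD, n = 3 each), a fold of 1.91. Cstb, Cst3 and Cst7 together gave 409 ± 72.2 CPM in unloaded and 415 ± 42.0 CPM in control marrow (SD, n = 3 each), with overlapping groups. In whole marrow, more cells of a type and more RNA per cell cannot be told apart.

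Across all tested genes, groups that do not overlap with unloaded above control made up 5.46% and those with unloaded below control 6.4%. A fold of at least 1.5 in the higher direction was seen in 4.15% of tested genes and in 6 of the 6 copies, and a fold of at least 2 in 1.01% and in 4 of the 6. The median log2 fold change was 1.07 over the 6 copies and 0.01 over all tested genes. By edgeR's quasi-likelihood test at an adjusted p under 0.05, 0% of the 15015 genes were called, members included. At an unadjusted p under 0.05 it gave 879 genes, or 5.85%, while limma-voom called 0 genes at an adjusted p under 0.05 and 871 at an unadjusted one. DESeq2 called 40 genes, 0.302% of those it gave an adjusted p. Of them 14 were higher, or 0.106%, and these included 3 copies, Stfa1, BC100530 and Gm5483. Because the copies were chosen for this contrast, these shares are background only.

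**Figure D1:**
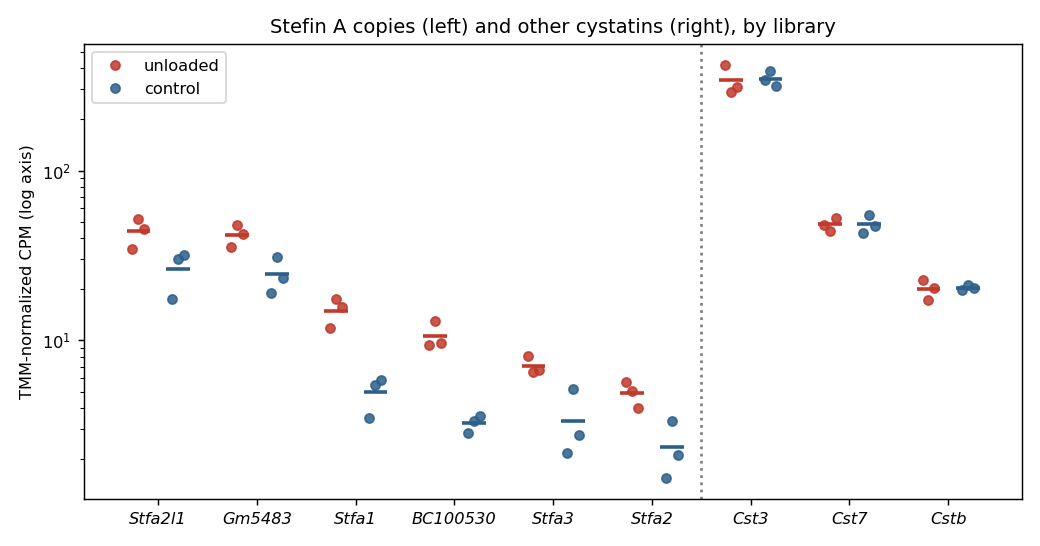
Levels of the 9 members in TMM-scaled CPM on a log axis, with unloaded libraries left of control libraries, points for libraries and bars for the mean of 3. The unloaded points lie above the control points for all 6 stefin A copies, and the groups overlap for Cstb, Cst3 and Cst7.

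Stfa1 and BC100530, the pair nearest in sequence, had the largest fold changes. Stfa1, the first named of the stefin A genes, had 185, 296 and 254 counts in the unloaded libraries, against 61, 91 and 100 counts in the control libraries. That corresponded to 11.8, 17.4 and 15.7 CPM in unloaded and 3.49, 5.49 and 5.87 CPM in control marrow. The lowest unloaded library lay well above the highest control library. The means were 14.97 ± 2.89 CPM in unloaded and 4.95 ± 1.28 CPM in control marrow (SD, n = 3 each), a fold of 3.02 and a log2 fold change of 1.60 ± 0.24 (SE).

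BC100530, named Cstdc5 in RefSeq, is a stefin A-like gene of the cystatin-domain-containing group. It had 148, 220 and 156 counts in the unloaded libraries, against 50, 56 and 61 counts in the control libraries. On the CPM scale this was 9.43, 12.96 and 9.63 in unloaded and 2.86, 3.38 and 3.58 in control marrow. The control libraries lay close together and all unloaded libraries lay well above them. The means were 10.7 ± 1.98 CPM in unloaded and 3.27 ± 0.372 CPM in control marrow (SD, n = 3 each), with a log2 fold change of 1.70 ± 0.22 (SE). Counted together, which leaves out any exchange of reads between them, Stfa1 and BC100530 gave 21.2, 30.4 and 25.3 CPM in unloaded and 6.35, 8.86 and 9.45 CPM in control marrow, a fold of 3.12.

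Stfa2l1 and Gm5483 were the copies with the most counts and had smaller fold changes. Stfa2l1, a close relative of Stfa2, had 545, 885 and 736 counts in the unloaded libraries, against 308, 498 and 541 counts in the control libraries. In CPM these were 34.7, 52.1 and 45.4 in unloaded and 17.6, 30.0 and 31.8 in control marrow. The lowest unloaded library was only just above the highest control library. The means were 44.1 ± 8.78 CPM in unloaded and 26.5 ± 7.72 CPM in control marrow (SD, n = 3 each), a log2 fold change of 0.74 ± 0.22 (SE).

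Gm5483, named Cstdc4 in RefSeq, had 558, 815 and 682 counts in the unloaded libraries, against 333, 514 and 397 counts in the control libraries. Its CPM were 35.6, 48.0 and 42.1 in unloaded and 19.0, 31.0 and 23.3 in control marrow. The groups did not overlap, with unloaded 1 and control 2 nearest to each other. The means were 41.9 ± 6.23 CPM in unloaded and 24.4 ± 6.05 CPM in control marrow (SD, n = 3 each), a log2 fold change of 0.78 ± 0.18 (SE).

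Stfa3 and Stfa2 had the fewest counts over the 6 libraries together. Stfa3, the outermost copy on its side of the cluster, had 127, 110 and 109 counts in the unloaded libraries, against 38, 86 and 47 counts in the control libraries. In CPM these were 8.09, 6.48 and 6.73 in unloaded and 2.17, 5.18 and 2.76 in control marrow. Control 2 stood above the other control libraries and nearest to the unloaded ones. The means were 7.10 ± 0.868 CPM in unloaded and 3.37 ± 1.60 CPM in control marrow (SD, n = 3 each), a log2 fold change of 1.07 ± 0.31 (SE).

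Stfa2 had 89, 85 and 65 counts in the unloaded libraries, against 27, 56 and 36 counts in the control libraries. Its CPM were 5.67, 5.01 and 4.01 in unloaded and 1.54, 3.38 and 2.11 in control marrow. Control 2 was again the highest control library, and control 1 was the lowest control library for each of the 6 copies. The means were 4.90 ± 0.835 CPM in unloaded and 2.34 ± 0.937 CPM in control marrow (SD, n = 3 each), a log2 fold change of 1.06 ± 0.31 (SE). Taken with its near twin, Stfa2 and Stfa2l1 summed to 40.4, 57.1 and 49.4 CPM in unloaded and 19.2, 33.4 and 33.9 CPM in control marrow, a fold of 1.70.

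The summed cluster is also given with libraries set aside. Its groups were apart, so its direction could hardly change, and only the size of the fold is described. Without unloaded 1 the means were 133 CPM in unloaded and 64.9 CPM in control marrow, a fold of 2.05. Without control 1, the lowest library of the cluster, they were 124 CPM in unloaded and 73.9 CPM in control marrow, a fold of 1.67. Without both libraries they were 133 CPM in unloaded and 73.9 CPM in control marrow, a fold of 1.80.

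The cystatins coded elsewhere showed no such shift. Cstb, the stefin B gene whose human loss causes progressive myoclonus epilepsy, had 22.6, 17.4 and 20.2 CPM in unloaded and 19.7, 21.1 and 20.4 CPM in control marrow. The 3 control libraries lay within the range of the unloaded ones. The means were 20.1 ± 2.62 CPM in unloaded and 20.4 ± 0.684 CPM in control marrow (SD, n = 3 each), a log2 fold change of -0.02 ± 0.14 (SE).

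Cst3, the broadly expressed secreted cystatin C, had 419.9, 292 and 311 CPM in unloaded and 339.9, 386 and 314 CPM in control marrow. Unloaded 1 was the highest of the 6 libraries and the other unloaded libraries were the lowest. Its log2 fold change was -0.02 ± 0.15 (SE) with all libraries and -0.20 without unloaded 1. Cst7, the cystatin F gene of immune cells, whose product reaches the endolysosomal system and restrains cathepsin C, had 48.0, 43.8 and 52.8 CPM in unloaded and 42.8, 54.9 and 47.3 CPM in control marrow. The groups overlapped throughout, and the means were 48.2 ± 4.51 CPM in unloaded and 48.3 ± 6.14 CPM in control marrow (SD, n = 3 each).

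Levels of different genes were compared per length, as CPM divided by the deposited gene length in kilobases (RPKM). Cst3 had the highest level in both groups, at 269 ± 54.6 RPKM in unloaded and 274 ± 29.0 RPKM in control marrow (SD, n = 3 each). Stfa2l1 came next, at 105 ± 21.0 RPKM in unloaded and 63.2 ± 18.4 RPKM in control marrow. Cst7 followed at 48.9 ± 4.57 RPKM in unloaded and 49.0 ± 6.22 RPKM in control marrow, and Cstb at 33.3 ± 4.35 RPKM in unloaded and 33.9 ± 1.13 RPKM in control marrow. In control marrow the libraries of Stfa2l1 and Cst7 overlapped on the RPKM scale, so their order there is within the spread, while in unloaded marrow they were apart.

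The remaining copies were lower. Gm5483 had 22.5 ± 3.35 RPKM in unloaded and 13.1 ± 3.25 RPKM in control marrow, computed over a deposited length of 1862 bases, the longest of the 9 members. Stfa1 stood at 21.1 ± 4.07 RPKM in unloaded and 6.97 ± 1.80 RPKM in control marrow. For Stfa3 the level was 17.2 ± 2.11 RPKM in unloaded and 8.19 ± 3.87 RPKM in control marrow. BC100530 reached 13.5 ± 2.51 RPKM in unloaded and 4.14 ± 0.471 RPKM in control marrow, and Stfa2 10.4 ± 1.77 RPKM in unloaded and 4.98 ± 1.99 RPKM in control marrow. In unloaded marrow the libraries of each of these copies overlapped with those of the next in this order. In control marrow the order was Gm5483, Stfa3, Stfa1, Stfa2 and BC100530, and there too each overlapped with the next across libraries. Compared within each library, Gm5483 was above Stfa1 in all unloaded libraries. Likewise Gm5483 was above Stfa3, and Stfa1 above Stfa2, in all control libraries. The other neighbours changed order between libraries.

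Ratios within a library do not depend on how libraries are scaled. The cluster gave 0.215, 0.402 and 0.322 counts per count of Cstb, Cst3 and Cst7 together in the unloaded libraries, against 0.116, 0.170 and 0.182 in the control libraries. Unloaded 1 was the nearest to the controls and still above all 3. The mean ratio was 0.313 ± 0.0942 in unloaded and 0.156 ± 0.0350 in control marrow (SD, n = 3 each), and the mean log2 ratios differed by 0.99.

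The choice of the other cystatin made little difference to that picture. Per count of Cstb the cluster gave 4.65, 8.17 and 6.10 counts in unloaded and 2.37, 3.72 and 3.40 in control libraries. Per count of Cst3 it gave 0.251, 0.487 and 0.398 in unloaded and 0.137, 0.203 and 0.221 in control libraries. Per count of Cst7 it gave 2.19, 3.24 and 2.34 in unloaded and 1.09, 1.43 and 1.47 in control libraries. The groups were apart with each of the 3 denominators. Copy by copy, the ratio to Cstb was apart for 5 of the 6, and for Stfa2l1 it overlapped, at 1.54, 3.00 and 2.24 in unloaded and 0.893, 1.42 and 1.55 in control libraries.

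**Figure D2:**
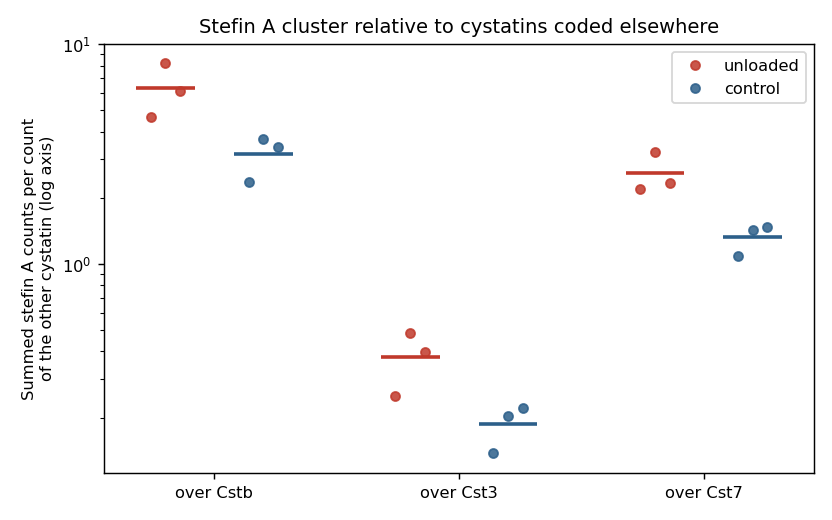
Counts of the 6 stefin A copies per count of Cstb, Cst3 and Cst7 within each library, on a log axis, unloaded left of control, with bars for the mean of 3. The unloaded libraries lie above the control libraries in each ratio, from 4.65 to 8.17 against 2.37 to 3.72 over Cstb.

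The share of each copy in the cluster's counts follows from the fold changes above and is a description. Stfa1 held 11.2%, 12.3% and 12.7% of the cluster's counts in the unloaded libraries, against 7.47%, 6.99% and 8.46% in the control libraries. BC100530 held 8.96%, 9.12% and 7.79% in the unloaded libraries, against 6.12%, 4.30% and 5.16% in the control libraries. Both shares were higher in every unloaded library than in any control library. Stfa2l1 took the smaller share in unloaded marrow, at 33.0%, 36.7% and 36.8%, against 37.7%, 38.3% and 45.8% in control marrow. The shares of Gm5483, Stfa2 and Stfa3 overlapped between the groups.

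The ratio of Stfa1 to Stfa2l1 varied little within a group. It was 0.339, 0.334 and 0.345 in the unloaded libraries, against 0.198, 0.183 and 0.185 in the control libraries. The means were 0.340 ± 0.00533 in unloaded and 0.189 ± 0.0083 in control marrow (SD, n = 3 each). Stfa1 and BC100530 are set over Stfa2l1 here for their unlike fold changes. A gap between the groups follows from that choice, and nothing is read from it. Unloaded 1, the lowest unloaded library for the cluster as a whole, lay between the other unloaded libraries in this ratio, and control 1 was the highest control library. BC100530 per count of Stfa2l1 was 0.272, 0.249 and 0.212 in unloaded and 0.162, 0.112 and 0.113 in control libraries, again apart.

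Other ratios between copies overlapped. For the pairs nearest in sequence, Stfa1 per count of BC100530 averaged 1.41 ± 0.197 in unloaded and 1.49 ± 0.238 in control marrow, and Stfa2 per count of Stfa2l1 0.116 ± 0.0412 in unloaded and 0.0889 ± 0.0230 in control marrow (SD, n = 3 each). Gm5483 per count of Stfa2l1 averaged 0.957 ± 0.0579 in unloaded and 0.949 ± 0.188 in control marrow. Stfa2 per count of Stfa3 averaged 0.690 ± 0.0887 in unloaded and 0.709 ± 0.0574 in control marrow (SD, n = 3 each). Gm5483 with Stfa2l1, and Stfa2 with Stfa3, are set together here for their like fold changes, so nothing is read from the overlap of those ratios. Reads shared between copies can enter the ratios that hold Stfa1, BC100530, Stfa2 or Stfa2l1, and their part in the shift was not tested.

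**Figure D3:**
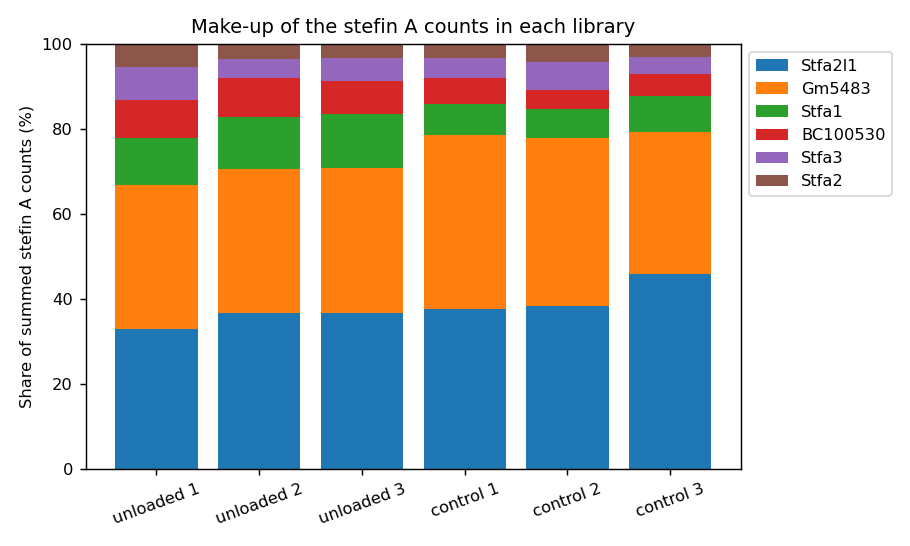
Share of the summed stefin A counts held by each copy in each library, in percent, with the unloaded libraries left of the control libraries. Stfa1 and BC100530 take larger shares in all 3 unloaded libraries, and Stfa2l1 smaller ones.

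Other family A genes of the same region were near the limit of detection. The gene 2010005H15Rik, a stefin A-like model inside the cluster, had 22, 9 and 9 counts in the unloaded libraries, against 3, 4 and 4 counts in the control libraries. Gm5416, another model there, had 7, 16 and 7 counts in unloaded and 6, 4 and 6 counts in control libraries. BC117090 had 2, 10 and 0 counts in unloaded and 1, 2 and 2 counts in control libraries. None of these passed the filter on low counts, and they were named after their values were seen. Csta1, just outside the span, had 1 count in unloaded 2 and none elsewhere, and Gm4758 had no count in any library.

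Secreted cystatins other than Cst3 and Cst7 were all but absent. Of 11 listed genes 8 were in the table, 7 had no count in any library and 0 passed the filter, and their summed level reached 0.255 CPM in unloaded and 0.0603 CPM in control marrow at most. The 5 plasma proteins with cystatin domains, among them the fetuin and kininogen genes, also gave 0 genes past the filter. Among the cystatin genes listed, nearly all counts thus came from the 9 members.

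Genes next to the cluster were examined within 500 kb of its ends. Apart from the members, 23 genes lay inside the cluster, of which 14 had no count and 0 passed the filter. Outside it, 18 genes were tested, 9 on each side, and edgeR, DESeq2 and limma-voom called 0 of them at an adjusted p under 0.05. At an unadjusted p under 0.05, edgeR gave 2, beside 5.85% of all tested genes. Their fold changes were positive for 8 and negative for 10, with a median log2 of -0.07, and the groups were apart for 1 upward and 3 downward, beside 5.46% and 6.4% of all tested genes.

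The nearest tested genes on the side of Stfa2l1 were Ccdc58, Fam162a and Wdr5b. Ccdc58, a mitochondrial protein gene, lay 64.7 kb away with a log2 fold change of 0.02 ± 0.26 (SE). For Fam162a, a mitochondrial protein gene, it was -0.01 ± 0.21, and for Wdr5b, a WD-repeat gene, -0.35 ± 0.23. On the side of Stfa3 the nearest was Cd86, the co-stimulatory ligand of antigen-presenting cells, 148 kb away with 0.11 ± 0.20, followed by Ildr1, a tricellular junction gene, with 0.77 ± 0.50.

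Slc15a2, the gene of the peptide transporter PEPT2, lay 295 kb from the cluster. It had 363, 449 and 304 counts in the unloaded libraries, against 8, 221 and 289 counts in the control libraries. In CPM this was 23.1, 26.5 and 18.8 in unloaded and 0.458, 13.3 and 17.0 in control marrow. Control 1 was far below the other 5 libraries, and it was also the lowest library for each stefin A copy, though by much less. The log2 fold change of Slc15a2 was 1.15 ± 0.67 (SE), with an adjusted p of 0.890 by edgeR's quasi-likelihood test.

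**Figure D4:**
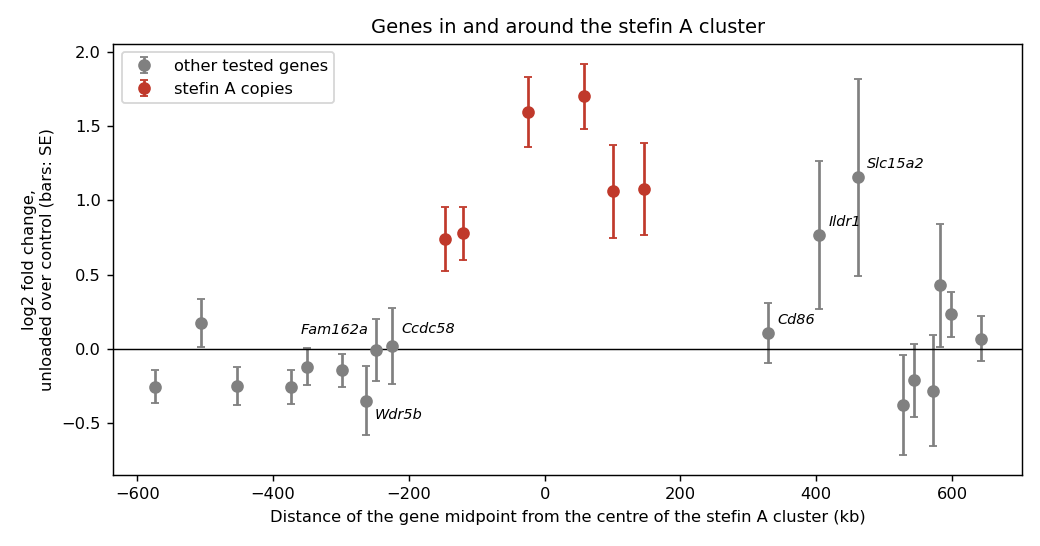
Log2 fold change of unloaded over control marrow, with SE, for the 6 stefin A copies and the 18 tested genes within 500 kb, against distance from the centre of the cluster in kb. The copies lie between 0.74 and 1.70, and the neighbours are spread around 0 with a median of -0.07.

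The stretches before the RefSeq start sites show what the copies share beyond their coding parts. RefSeq promoter windows of GRCm38.p6 were matched for 8 of the 9 members, with Cstb not among them. All 6 copies held the 12 letters ACCTTTAAAACC, printed in capitals within 30 bases on the gene's strand.
Stfa1, chr16:36277106-36277135, plus strand: ctttcggatACCTTTAAAACCctgagtctc
BC100530, chr16:36367562-36367591, minus strand: tttacagatACCTTTAAAACCccgagtctc
Stfa2, chr16:36408375-36408404, minus strand: cttacagaaACCTTTAAAACCctgagtctc
Stfa2l1, chr16:36156766-36156795, plus strand: tttacagaaACCTTTAAAACCctgagtctc
Stfa3, chr16:36455406-36455435, minus strand: ttacagataACCTTTAAAACCccgagtctc
Gm5483, chr16:36184171-36184200, plus strand: tttacagatACCTTTAAAACCctgactctt
The letters began 32 to 36 bases before the RefSeq start in 5 copies and 12 bases before it in BC100530. Counted from the RefSeq start, the deposited gene starts at -197 in Stfa1, -178 in BC100530 and -94 in Stfa2. In these copies the letters therefore lie within the deposited gene. On either strand they occurred in 11 of 32851 promoter windows, or 0.0335%. The stretch was found in these windows rather than chosen beforehand, so its rarity is a description.

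The 250 bases before Stfa3, whose start is the same in both annotations, show where this stretch lies, again in capitals.
Stfa3, chr16:36455393-36455642, minus strand: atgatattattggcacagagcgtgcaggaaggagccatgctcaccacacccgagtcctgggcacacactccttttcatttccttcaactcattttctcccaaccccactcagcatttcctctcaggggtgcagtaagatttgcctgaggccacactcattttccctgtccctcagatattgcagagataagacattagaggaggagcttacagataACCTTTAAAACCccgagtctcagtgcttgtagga
A second stretch, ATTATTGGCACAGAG, stood near the far end of the windows of Stfa1, BC100530, Stfa2, Stfa2l1 and Stfa3 and in none of the others of the table, which is 0.0152% of windows. It was sought as the longest stretch shared by these copies, with Gm5483 left out of that search, so its rarity is a description. The window of Gm5483 does not hold it.

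Of 3 short motifs searched on both strands, GAGGAA, the core of the site of the myeloid factor PU.1, was in the windows of all 6 copies and of Cst3, and in 23.3% of all windows. The windows of the copies are themselves alike, at 56.1% to 89.4% identity between pairs, so nothing is read from their sharing GAGGAA. In Stfa1 and Stfa2 the match to GAGGAA lies within the deposited gene. TTGCNNAA, a form of the site of C/EBP factors, was in those of Stfa1 and BC100530 and in 9.56% of all windows. The exact letters TATAAA, of the TATA box, were in 0 of the 6 windows and in 12.4% of all windows, and variants of them were not searched. In both Stfa1 and BC100530 the match to TTGCNNAA lies within the deposited gene. These copies are also the pair nearest in coding sequence, at 98.0% identity, so nothing is read from their sharing it. Whether the motif bears on their fold changes was not tested. A match shows letters only and says nothing of binding.

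The targets of cystatins, the papain-like cysteine proteases with legumain, were tested over the whole table. All 11 listed genes passed the filter, and at an adjusted p under 0.05 edgeR called 0 of them, limma-voom 0 and DESeq2 1, which was Ctsk. At an unadjusted p under 0.05 there were 2 higher and 1 lower, beside 2.67% higher and 3.18% lower over all tested genes. Fold changes were positive for 8 and negative for 3, with a median log2 of 0.03.

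Ctsc, the gene of cathepsin C, which activates the serine proteases of granules, had 208, 135 and 220.1 CPM in unloaded and 116, 129 and 113 CPM in control marrow. The groups were apart, with unloaded 2 close to the controls. The log2 fold change of Ctsc was 0.65 ± 0.17 (SE), and its adjusted p was 0.600 by edgeR's quasi-likelihood test. Ctsw, the cathepsin W gene of cytotoxic lymphocytes, had 14.3, 14.8 and 11.5 CPM in unloaded and 9.89, 8.86 and 10.6 CPM in control marrow, with an adjusted p of 0.802 by the same test in edgeR.

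Ctsk, whose product cathepsin K cleaves bone collagen in the resorption pit of osteoclasts, had 4.59, 6.89 and 3.52 CPM in unloaded and 13.5, 10.5 and 12.5 CPM in control marrow. All 3 unloaded libraries lay below the control libraries. The log2 fold change of Ctsk was -1.28 ± 0.25 (SE), and its adjusted p was 0.313 by edgeR's quasi-likelihood test. With no low-count filter, edgeR called both Ctsk and Ctsc. The 8 other genes had log2 fold changes between -0.07 and 0.26. They were 0.01 ± 0.12 (SE) for Ctsb, 0.03 ± 0.11 for Ctsh, -0.02 ± 0.12 for Ctsl and 0.09 ± 0.16 for Ctss, the lysosomal cathepsins B, H, L and S. They were 0.26 ± 0.16 for Ctsz, 0.04 ± 0.15 for Ctso, -0.07 ± 0.23 for Ctsf and 0.01 ± 0.19 for Lgmn, the legumain gene.

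**Figure D5:**
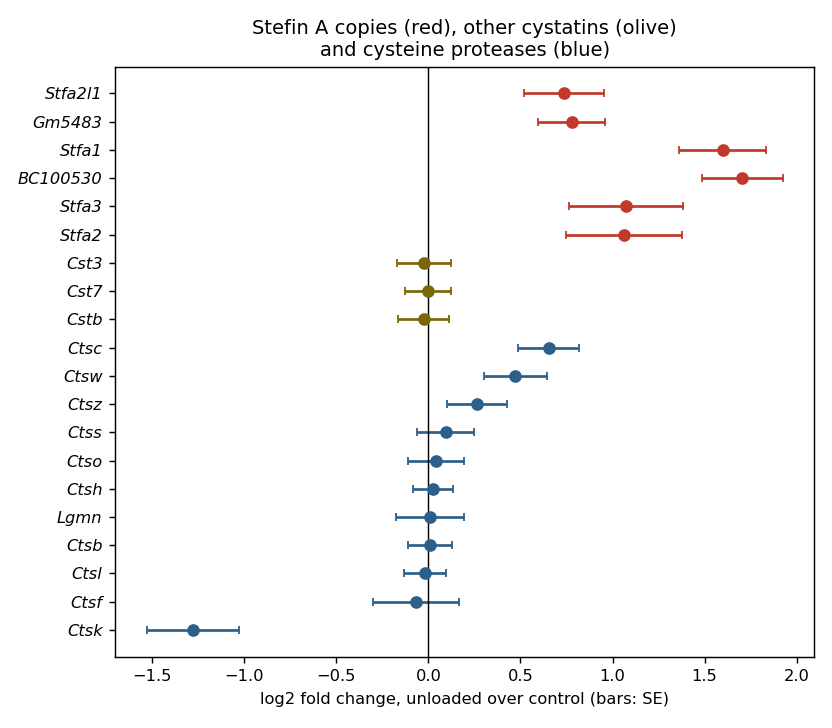
Log2 fold change of unloaded over control marrow, with SE, for the 6 stefin A copies, the 3 other cystatins and the 11 cysteine proteases with legumain. The copies lie between 0.74 and 1.70, Ctsk at -1.28 and Ctsc at 0.65.

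Serine proteases that cathepsin C activates gave 0 of 6 genes called by edgeR, DESeq2 or limma-voom, with 3 positive and 3 negative. At an unadjusted p under 0.05 edgeR gave 1, which was higher, beside 2.67% higher over all tested genes. The groups were apart upward for 2, Gzma and Gzmb, and downward for 0, beside 5.46% and 6.4% of all tested genes. Elane, Prtn3 and Ctsg, the neutrophil elastase, proteinase 3 and cathepsin G genes, had log2 fold changes of -0.14 ± 0.12, -0.15 ± 0.14 and -0.14 ± 0.18 (SE). Gzma, the granzyme A gene, had 10.1, 5.30 and 6.97 CPM in unloaded and 3.95, 3.56 and 3.82 CPM in control marrow, with an adjusted p of 0.658 by edgeR's quasi-likelihood test. Other listed protease inhibitors gave 0 of 9 tested genes called by the 3 tools and 0 at an unadjusted p under 0.05 by edgeR. Their fold changes were positive for 5 and negative for 4, with a median log2 of 0.00. Serpinb1a, an inhibitor of neutrophil serine proteases, had 0.06 ± 0.12 (SE), Slpi -0.02 ± 0.11, Wfdc21 -0.10 ± 0.13 and Cast, the calpain inhibitor gene, 0.00 ± 0.09.

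Markers of marrow cell types gave the composition beside which the cluster stands, and edgeR and limma-voom called 0 genes in every list. DESeq2 called Cx3cr1 among the monocyte, Hbb-bs among the erythroid and Ctsk among the osteoclast markers. Summed over 13 genes, mature neutrophil markers ranged from 26373 to 31548 CPM in unloaded and from 28016 to 31337 CPM in control marrow, with 4 positive and 9 negative. At an unadjusted p under 0.05 by edgeR, 1 of them was lower, beside 3.18% of all tested genes. S100a8 and S100a9 carried most of the mature neutrophil sum. Their means were 9483 and 10962 CPM in unloaded and 9951 and 11369 CPM in control marrow. The 10 markers of the secondary granule stage ranged from 30998 to 38911 CPM in unloaded and from 33773 to 37618 CPM in control marrow. For the 7 markers of the primary granule stage the range was 5911 to 6416 CPM in unloaded and 6107 to 7557 CPM in control marrow. All 3 neutrophil lists overlapped between the groups, and the median log2 fold change of each was at or below 0.

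Monocyte markers, 8 genes, summed to between 1881 and 2488 CPM in unloaded and between 2014 and 2129 CPM in control marrow, with a median log2 of 0.34. At an unadjusted p under 0.05, 4 monocyte markers were higher and 1 was lower, beside 2.67% and 3.18% of all tested genes. Vcan, a proteoglycan gene of monocytes, had 253, 44.1 and 124.8 CPM in unloaded and 35.7, 25.1 and 15.6 CPM in control marrow, and Cx3cr1, a chemokine receptor gene, 35.5, 41.0 and 35.3 CPM in unloaded and 60.6, 59.4 and 57.8 CPM in control marrow. Both were apart between the groups, Vcan upward with unloaded 1 the highest and Cx3cr1 downward, and both were named after their values were seen. The 9 macrophage markers gave 262 to 345 CPM in unloaded and 274 to 314 CPM in control marrow. The 8 eosinophil markers gave 1399.9 to 2348 CPM in unloaded and 1159 to 1855 CPM in control marrow. The 9 markers of NK and cytotoxic T cells gave 140.2 to 162 CPM in unloaded and 119.6 to 142 CPM in control marrow. The summed levels of all 4 lists overlapped between the groups. Single markers of these lists that were apart, besides Vcan and Cx3cr1, were Il5ra, Gzma and Cd8b1, each upward. Over all tested genes, 5.46% were apart upward and 6.4% downward.

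A few lists were apart in their summed level. Erythroid markers, 8 genes, had 5524, 6189 and 4453 CPM in unloaded and 3598, 3637 and 4441 CPM in control marrow, with 7 positive and 1 negative. At an unadjusted p under 0.05, 4 of them were higher, beside 2.67% of all tested genes, although unloaded 3 and control 3 nearly met in the sum. Basophil and mast cell markers had 311 to 364 CPM in unloaded and 394 to 406 CPM in control marrow, and dendritic cell markers 127 to 149 CPM in unloaded and 163 to 168 CPM in control marrow. By edgeR at an unadjusted p under 0.05, 2 of the 6 tested basophil and mast cell markers were lower and 0 higher. Of the 7 dendritic cell markers 3 were lower and 0 higher, beside 3.18% lower over all tested genes. Osteoclast markers, whose sum was carried almost wholly by Mmp9, which neutrophils also express, had 2174 to 2822 CPM in unloaded and 3083 to 3304 CPM in control marrow, with Calcr at 0. Of the 4 tested osteoclast markers 3, Ctsk and Mmp9 among them, were lower by edgeR at an unadjusted p under 0.05. The fold change was positive for 1, and the median log2 was -0.79. Keratinocyte markers, examined because stefin A is abundant in skin, had 8 of 10 genes at 0 and at most 0.432 CPM in unloaded and 0.763 CPM in control marrow. The part of these differences in the levels of the stefin A copies was not tested.

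Genes whose profile over the 6 libraries was most like that of the summed cluster were ranked by the root mean square distance of log2 deviations, among 10035 protein-coding genes with a mean of at least 5 CPM. The nearest were Gm14085 at 0.16, Skap1, an adaptor of T cell receptor signalling, at 0.23, Fbp1, a gluconeogenic enzyme, at 0.24, Serpinb9, the granzyme B inhibitor, at 0.25 and Rab7b, a late endosomal GTPase, at 0.25. The median over all genes was 0.57, and Slc15a2, the neighbour described above, lay at 1.49. Of the members, Gm5483 and Stfa2l1 lay at 0.12 and 0.14, the other copies between 0.27 and 0.39, and Cst7, Cstb and Cst3 at 0.53, 0.58 and 0.61. The copies are parts of the sum they are set against, Gm5483 and Stfa2l1 the largest, and the other cystatins are not. Nothing is therefore read from the distances of the members. The profile of the cluster holds the difference between the groups, so genes that differ likewise come first, and the ranking is a description.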

How the data were processed

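RNA-seq libraries from 3 unloaded and 3 control marrow samples were grouped by their titles. Per the labels' protocols, RNA was isolated with TRNzol, and the NEBNext Ultra RNA kit was used for libraries. Per the submitters' processing notes, CASAVA, HISAT2 2.0.5, featureCounts 1.5.0-p3 and the build mm10 were used. The deposited table holds raw counts per gene without normalization, with positions and gene lengths, as whole numbers and unequal totals show. The depth of 15850986 to 17775506 counts per library puts 3 counts at 0.172 to 0.191 CPM, which covers counting error only.

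Genes were kept by filterByExpr and scaled by TMM. Groups were compared with edgeR 4.0.16 (glmQLFit, glmQLFTest) in R 4.3.3, with Benjamini-Hochberg adjustment over all genes and a threshold of 0.05. The SE of a log2 fold change is its size divided by the square root of F. Log2 CPM used a prior count of 2. The fit was tested on simulated data. Every pair of libraries differed by more than sampling noise, with chi-square per degree of freedom of 7.20 to 38.3 over 15 pairs. Alternatives were RLE and upper-quartile scaling, other low-count filters, DESeq2 1.42.0, limma-voom (limma 3.58.1), each library left out and the replicate number as a block. The fold of the cluster without both unloaded 1 and control 1 was added after seeing the data.

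The members, gene lists, markers and tests were chosen with earlier results of these data known. Genes named were the members, all cysteine proteases, the 4 most abundant tested members of other lists, limited here to those that bear on the members, the 3 nearest tested neighbours per side and the 5 genes most like the cluster in profile. Sequences came from GENCODE M21 and RefSeq GRCm38.p6. BC100530 and Gm5483 were matched to RefSeq by gene identifier. Protein sequences were not used here.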

Additional observations from a re-analysis of the deposited data

How the results depend on the processing

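The summed cluster had a log2 fold of 0.93, with 0.93 under RLE scaling, 0.95 under upper-quartile scaling and 0.74 to 1.09 with single libraries left out. The ratio to the other cystatins kept its direction, with 0.78 to 1.23 when single libraries were left out and 0.95 to 0.99 with Cstb, Cst3 or Cst7 alone. Over 13 settings the log2 fold changes of the 6 copies kept their sign, while that of Cst7 changed sign in 6, that of Cst3 in 3 and that of Cstb in 1, all near 0. Every unloaded library lay above every control library for each copy, for their sum and for the ratio. Leaving out a library could therefore hardly change their sign, and nothing is read from it. The count of genes called over the table differed between settings. It was 0 by edgeR, 183 with no low-count filter, 40 with DESeq2 and 0 to 5 with single libraries left out. The 5 came without unloaded 1 and included Stfa1 and BC100530. Without the filter 27287 genes were tested and 5 of the 6 copies were among the calls, all but Stfa2. The cause was not tested. Since the copies were selected on this contrast, their place among these calls, and in that with the replicate block, is no evidence about them. Same-numbered libraries did not pair, since their deviations correlated at 0.03, -0.06 and 0.02. With the replicate block 1 gene was called, Stfa1, and the log2 fold of the cluster was 0.95. Depth limits Stfa2 and Stfa3 most, with 27 to 127 counts per library.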
